A study of Drosophila melanogaster with 3 samples.

Results

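The 73 genes described here encode proteins of the mitochondrial ribosome of Drosophila melanogaster, 47 of the large subunit (mRpL) and 26 of the small subunit (mRpS). Membership was set by symbol, as every gene whose name starts with mRpL or mRpS and a number, out of 18277 annotated genes, of which 13968 are protein-coding. The list itself was taken up with earlier results of these data known. Binding was measured by chromatin immunoprecipitation and sequencing (ChIP-seq) with an antibody against GFP, in whole embryos of mixed sex aged 0 to 24 hours. All 3 biological replicates, numbered 1, 2 and 4 in the labels, came from 1 transgenic line with a C-terminal eGFP fusion of the protein encoded by CG10565, and there was no second genotype or treatment. CG10565 belongs to the J-domain chaperones, and its human relative DNAJC2 acts on chains leaving the cytosolic ribosome. Whole embryos mix all tissues and stages, so the cells in which a region was bound cannot be told.

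Mitochondrial ribosomes translate the few proteins encoded by mitochondrial DNA, which are subunits of the respiratory chain and the ATP synthase. Their ribosomal RNAs come from the mitochondrial genome, but all their proteins are encoded in the nucleus, made in the cytosol and imported. Some of these proteins descend from bacterial ribosomal proteins, such as mRpS2, mRpS7, mRpS10, mRpL21, mRpL23, mRpL24, mRpL32 and mRpL34, and others, such as mRpS23, mRpL41, mRpL37 and mRpS22, have no bacterial counterpart.

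Of the 73 genes, 10 had a reproducible CG10565 peak at a transcription start site. These were mRpS10, mRpS23, mRpL41, mRpL23, mRpL24, mRpS7, mRpL21, mRpL32, mRpL34 and mRpS2, in order of pooled signal. A peak was counted at a gene when its summit lay within 500 bp of any annotated start, and it was called reproducible when it was in the authors' optimal list by irreproducible discovery rate (IDR), which scores how alike peaks rank across replicates. The bases at the summit are shown for 8 of these genes. A summit does not show which bases were contacted, or whether contact was direct. In the IDR list, 85.5% of summits lie at the centre of the call. Each stretch reaches up to 60 bp to either side of the summit, without annotated exons, in the direction of the mitochondrial gene, from release 6 of the reference genome (dm6; RefSeq). Capitals mark TTAATT or its reverse complement AATTAA, which overlap where AATTAATT is written. This word was picked after the sequences had been read, so its presence is a description of these stretches only.
mRpS10 (chr3R:15229458-15229578, plus strand): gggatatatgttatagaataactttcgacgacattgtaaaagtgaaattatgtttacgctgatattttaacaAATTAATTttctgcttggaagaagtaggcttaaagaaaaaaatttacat
mRpS23 (chr2L:13835407-13835527, minus strand): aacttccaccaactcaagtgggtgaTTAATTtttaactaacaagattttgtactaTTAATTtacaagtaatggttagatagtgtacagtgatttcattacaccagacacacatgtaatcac
mRpL23 (chr3L:2373533-2373596, minus strand): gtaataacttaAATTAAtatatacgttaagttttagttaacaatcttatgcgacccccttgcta
mRpL24 (chr2L:4945433-4945553, minus strand): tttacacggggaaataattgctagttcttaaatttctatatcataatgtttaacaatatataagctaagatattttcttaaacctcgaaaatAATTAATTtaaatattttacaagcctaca
mRpS7 (chr2L:10386494-10386614, plus strand): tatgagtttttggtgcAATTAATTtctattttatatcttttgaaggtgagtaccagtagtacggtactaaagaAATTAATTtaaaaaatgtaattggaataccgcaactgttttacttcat
mRpL21 (chr3L:19255204-19255324, minus strand): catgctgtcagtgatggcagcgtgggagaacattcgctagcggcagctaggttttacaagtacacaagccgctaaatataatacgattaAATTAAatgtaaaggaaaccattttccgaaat
mRpL32 (chr3R:31252718-31252838, plus strand): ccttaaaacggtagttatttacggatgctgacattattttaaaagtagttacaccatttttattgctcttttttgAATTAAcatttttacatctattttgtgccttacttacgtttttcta
mRpS2 (chr2L:4850560-4850640, minus strand): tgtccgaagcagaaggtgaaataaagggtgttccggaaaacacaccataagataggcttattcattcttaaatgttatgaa

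These stretches are rich in A and T. Over the window from 100 bp before to 100 bp after the summit, the median GC content was 30.1% for the 10 genes with a reproducible peak, with a range of 26.4% to 39.3%. It was 31.6% for the 46 genes of the ribosome with any call in the pool of the replicates, against 36.3% for all 6388 pooled calls at starts of protein-coding genes. For the 596 reproducible peaks at such starts it was 33.8%. Within that window, TTAATT was present in 10 of the 10 reproducible peaks and in 30 of the 46 best pooled calls (65.2%). The word was picked from stretches at most of these 10 peaks, and the 46 calls include the 10. Neither share is therefore independent of how the word was chosen. The same word was in 36.2% of all pooled calls at protein-coding starts and in 43.6% of the 596 reproducible peaks there. It was also common in these promoters whether or not they had a call. From 250 bp before to 50 bp after the start it was present at 45 of the 73 genes (61.6%). That compares with 43.2% of protein-coding promoters and 52.7% of those of cytosolic ribosomal protein genes. In mRpS2 it lay outside the stretch shown, 68 bp downstream of the summit. An A- and T-rich word is found more often in A- and T-rich DNA, and the part of base composition in this count was not tested.

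The lists behind these counts have a fixed size. The pooled list and each replicate list hold 30000 calls, peaks and background together by the authors' description, and the IDR list holds 1143, all with the coordinates of a pooled call. The genes with a call at pooled ranks 1 to 1143 were as many as those with an IDR peak, 898 by either count and 10 of the ribosome, so here the list acted as a limit on pooled signal. A place in it does not mean a high rank in every replicate: mRpL34 had no call in replicate 2, and mRpS2 had a low one there. Each call carries a signal from the authors' peak caller, whose scale the sources used here do not give, so signals were ranked within a list and never compared between lists. The lists carry no read counts, and depth is therefore unknown. Calls were mostly 600 bp wide in replicate 4 and 350 to 370 bp wide in the other lists. Summits in replicate 4 may be placed less finely, which was not measured.

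The 2 strongest pooled calls were at small-subunit genes. The promoter of mRpS10, whose product is in the small subunit, had a pooled signal of 649, rank 8 of the 30000 pooled calls. Its signal was 190 in replicate 1, 262 in replicate 2 and 185 in replicate 4, at ranks 11, 9 and 17. All replicates thus placed this call among their highest. The summit lay 147 bp upstream of mRpS10 and 110 bp from the start of Art3, an arginine methyltransferase gene that runs the other way from a start 257 bp off. The next was mRpS23, with a pooled signal of 551 at rank 16. The signals of mRpS23 were 163, 224 and 189 in replicates 1, 2 and 4, at ranks 17, 18 and 14. Its summit lay 395 bp upstream of mRpS23, at the far side of a 492 bp gap, and only 97 bp from CenG1A, a gene of the Arf GTPase-activating family.

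mRpS7 and mRpS2 were weaker and less even. The signal of mRpS7 was 150 in the pool (rank 542), and 41.4, 43.9 and 25.6 in replicates 1, 2 and 4, at ranks 749, 761 and 4067. Replicate 4 stood apart from the others here. Its summit, 108 bp upstream of mRpS7, lay in the 400 bp between mRpS7 and Cdk1, the mitotic kinase. The signal of mRpS2 was 108 in the pool (rank 1112), and 36.9, 16.0 and 51.5 in replicates 1, 2 and 4. The ranks of mRpS2 were 987 and 705 in replicates 1 and 4 but 14712 in replicate 2, a ratio of 20.9 between replicates. No other gene of the ribosome with a top 1143 call in a replicate differed by more than 10 times in rank from another replicate with a call. The summit lay 21 bp from the start of Mon1, a gene of endosome maturation, at the far side of the 222 bp between it and mRpS2.

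Of the large subunit, mRpL41 and mRpL23 were highest. The signal of mRpL41 was 547 in the pool (rank 18), and 154, 246 and 151 in replicates 1, 2 and 4, at ranks 18, 12 and 37. Its summit lay 138 bp upstream of mRpL41, with lncRNA:CR44463 also within 500 bp and the divergent CG8079 starting 762 bp away. The bacterial counterpart of mRpL23 sits at the exit of the peptide tunnel. The signal of mRpL23 was 325 in the pool (rank 73), and 92.7, 131 and 85.5 in replicates 1, 2 and 4, at ranks 90, 67 and 181. The summit of mRpL23 fell between alternative starts of that gene, 85 bp downstream of the nearest one, and CG9004 starts 24 bp from the outermost.

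The remaining large-subunit peaks were lower in every list. The signal of mRpL24 was 183 in the pool (rank 339), and 60.1, 41.0 and 82.8 in replicates 1, 2 and 4, at ranks 315, 869 and 202. It shares a 218 bp gap with betaggt-I, a subunit of a prenyl transferase. The signal of mRpL21 was 124 in the pool (rank 832) and 29.8, 36.7 and 44.9 in replicates 1, 2 and 4, at ranks 1565, 1074 and 1002. Its neighbour at 279 bp is rept, which encodes the ATPase reptin. The signal of mRpL32 was 118 in the pool (rank 915) and 27.6, 47.6 and 30.9 in replicates 1, 2 and 4, at ranks 1887, 664 and 2479. Its neighbour at 264 bp is qless, an enzyme gene of coenzyme Q synthesis. The signal of mRpL34 was 118 in the pool (rank 922), 24.3 in replicate 1 (rank 2485) and 14.8 in replicate 4 (rank 14977), with no call in replicate 2. The mRpL34 peak, beside Dg (dystroglycan, 384 bp away), was thus the reproducible peak with the least replicate support among the 10.

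**Figure D1:**
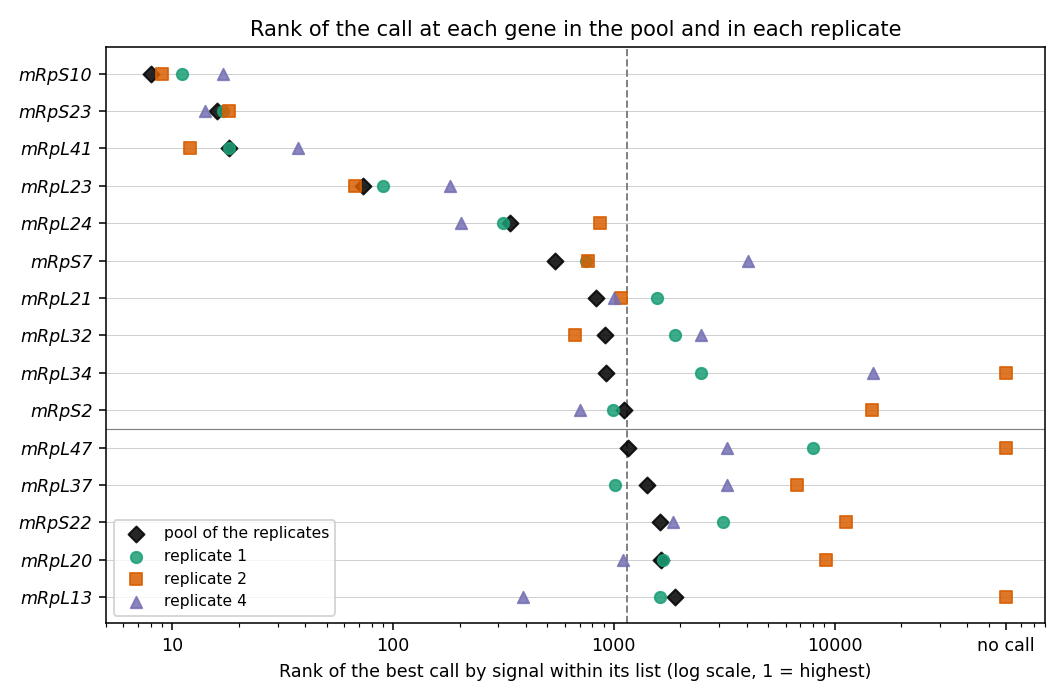
Rank of the best call at 15 genes of the mitochondrial ribosome (x axis, log scale, 1 is the highest signal), in the pool and in replicates 1, 2 and 4. The dashed line is rank 1143, the size of the IDR list. The 10 genes above the horizontal line have a reproducible peak and the 5 below are the next by pooled signal. The points of mRpS10, mRpS23, mRpL41 and mRpL23 lie close together, and those of the lower genes spread, with mRpL34, mRpL47 and mRpL13 without a call in replicate 2.

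The 5 genes next in pooled signal were mRpL47, mRpL37, mRpS22, mRpL20 and mRpL13, at pooled ranks 1164, 1409, 1617, 1632 and 1889. The weakest reproducible peak of the whole list had a signal of 106, and mRpL47 lay just outside it with 105, where mRpS2 lay just inside with 108. The replicates ordered these 5 genes differently. mRpL13 had its best rank in replicate 4 (388), stood at 1624 in replicate 1 and had no call in replicate 2. Starts of mRpL13 and of CG10602 lay equally near its pooled summit, at 31 bp, so the call was counted for both. mRpL37 was at 1008, 6796 and 3274 in replicates 1, 2 and 4. mRpL20 was at 1663, 9193 and 1095 in replicates 1, 2 and 4, beside Icmt, a prenylcysteine methyltransferase gene. mRpS22 was at 3136, 11217 and 1851 in replicates 1, 2 and 4, beside CG5003. mRpL47 was at 7968 in replicate 1 and 3241 in replicate 4, with no call in replicate 2. It lies next to CG8176 and Kdm3, a histone demethylase gene. Replicate 2 thus gave each of these 5 genes its lowest rank or no call.

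The other 31 genes with a pooled call had signals of 25.7 to 79.3 and ranks of 1941 to 24088. Of these, 8 had a call in all replicates, 13 in 2, 9 in 1 and 1 in none. The exception with none was mRpL28, named after its values were seen, whose pooled call had a signal of 33.4 at rank 12146. A further 18 genes had a call in a replicate list but not in the pool, 15 of them in replicate 1, and their replicate ranks ran from 1927 to 29698. The genes with no call in any list were mRpL12, mRpL33, mRpL35, mRpL40, mRpL46, mRpL52, mRpS14, mRpS33 and mRpS34. These 9 are 12.3% of the 73 genes, against 34.3% of all genes and 30.2% of protein-coding genes with no call. For mRpL12, mRpL33 and mRpL40 a pooled summit lay beyond the limit, at 573, 544 and 963 bp from the start. Among genes with calls in replicates only, mRpS25 and mRpL2 had a pooled summit just past it, at 505 and 665 bp. With a limit of 1000 bp the count of genes with a reproducible peak was still 10.

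Set beside the rest of the genome, the ribosome's genes held a larger share of calls when every gene near a summit was counted, and for pooled calls the direction turned when only the nearest start was counted. A reproducible peak was present at 10 of 73 genes (13.7%, 95% Wilson interval 7.61% to 23.4%), against 4.91% of all genes and 5.93% of protein-coding genes. A pooled call was present at 46 of 73 (63.0%, interval 51.5% to 73.2%), against 40.9% of all genes and 45% of protein-coding genes. When each call was given only to the gene with the nearest start, the count of reproducible peaks was 5 of 73 (6.85%), against 4.17% of protein-coding genes. By the same assignment the count of pooled calls was 25 of 73 (34.2%), against 36.6% of protein-coding genes, so this share was below the background. No test of these shares was made, since the list was chosen with earlier results of these data known.

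The replicates differed in how far the genes of the ribosome stood from the background. Replicate 1 had a call at 56 genes (76.7%), against 46.4% of all genes and 51.5% of protein-coding genes. Replicate 4 had a call at 44 (60.3%), against 36.7% and 40.4%. Replicate 2 had a call at 22 (30.1%), against 29.9% of all genes and 32.1% of protein-coding genes, so it was near both. Among the top 1143 calls of a list, replicate 1 held 8 genes (11.0%), against 5.04% of all genes. Replicate 2 also held 8, against 4.54%, and replicate 4 held 9 (12.3%), against 4.58%. Over protein-coding genes these top shares were 6.02%, 5.49% and 5.53% in replicates 1, 2 and 4. Replicate 2 thus held as many of these genes as replicate 1 at high ranks, while over its whole list their share was that of all genes. A call in all replicates was present at 20 genes (27.4%), against 14% of all genes and 16.6% of protein-coding genes. A top call in all replicates was present at 5 (6.85%), against 2.11% and 2.58%, and these were mRpS10, mRpS23, mRpL41, mRpL23 and mRpL24. With any 1 replicate left out, the reproducible peaks that were top calls in both others numbered 6, where mRpS7, mRpL21 or mRpS2 joined those 5.

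Ranks of the ribosome's genes were similar between replicates. Spearman's rho of the best rank was 0.83 between replicates 1 and 2 (21 genes with a call in both), 0.78 between 1 and 4 (37 genes) and 0.65 between 2 and 4 (21 genes). Over protein-coding genes it was 0.59, 0.54 and 0.53. These values are descriptions across genes, which share the libraries and are not independent replicates.

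Pooled calls at the ribosome's genes also had a higher rank in the median. The median pooled rank was 3378 over the 46 genes with a call, against 6998.5 over all genes with one and 6200 over protein-coding genes. With a divergent neighbour it was 3263 over 40 genes of the ribosome, against 4162 over protein-coding genes. By rank, 10 genes fell within 1 to 1143, 9 within 1144 to 2500, 14 within 2501 to 5000, 7 within 5001 to 10000 and 6 beyond. The subunits were alike in counts. The small subunit had a reproducible peak at 4 of 26 genes (15.4%) and a pooled call at 17 (65.4%), and the large subunit at 6 of 47 (12.8%) and 29 (61.7%).

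**Figure D2:**
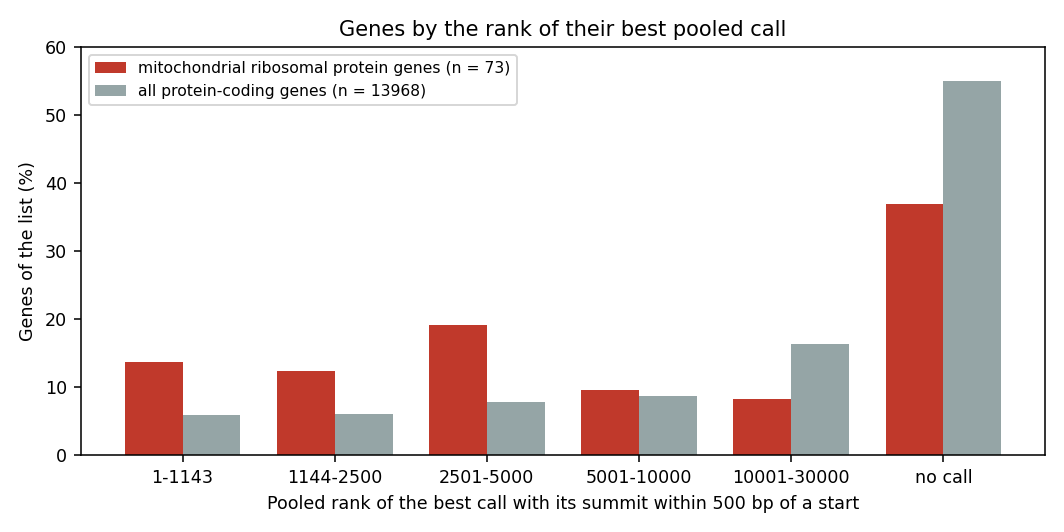
Share of genes (y axis, percent of the list) by the pooled rank of their best call (x axis), for the 73 genes of the mitochondrial ribosome and for all 13968 protein-coding genes. The first 3 ranges hold 10, 9 and 14 genes of the ribosome, larger shares than of protein-coding genes, and the range from 10001 holds a smaller share.

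Most of these genes start head to head with another gene. A start of another gene on the opposite strand lay within 1000 bp at 57 of 73 (78.1%), against 39.5% of protein-coding genes, with a median of 285 bp between the starts, and all 57 neighbours were protein-coding. Genes of the ribosome are also compact, with a median length of 909 bp against 2164.5 bp for protein-coding genes, and 91.8% of them had 1 annotated start against 73.5%. Calls were counted apart for genes with and without such a neighbour. A reproducible peak was present at 10 of the 57 genes with such a neighbour (17.5%) and at 0 of the other 16, where the 95% Wilson interval reaches 19.4%. The same shares were 10.1% and 3.22% over protein-coding genes. A pooled call was present at 40 of 57 (70.2%) and at 6 of 16 (37.5%), against 59.3% and 35.6% of protein-coding genes with and without a neighbour. Among divergent genes, 17.5% (95% Wilson interval 9.82% to 29.4%) stood against 10.1%. Without regard to neighbours, 13.7% of the ribosome's genes stood against 5.93% of protein-coding genes. The part of divergent starts in the counts of the ribosome was not tested.

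Summits lay upstream, in the gap between the paired starts. The best pooled summit was upstream of the mitochondrial gene in 42 of 46 cases (91.3%), against 76.0% of protein-coding genes, with a median of -150 bp against -137 bp. For reproducible peaks 9 of 10 were upstream (90%), against 91.7%, with a median of -142.5 bp against -156 bp, so this share was near that of other genes. The summit lay between both starts for 29 of the 40 divergent genes with a pooled call (72.5%), against 63.3% of protein-coding ones, and for 9 of the 10 reproducible peaks, against 64.6%. mRpL23 was the exception. Another gene also started within 500 bp of the summit for 40 of the 46 pooled calls and for all 10 reproducible peaks. The same count was not made over protein-coding genes, so it has no background here. The nearest start belonged to the mitochondrial gene for 23 of 46 best pooled calls (50%), against 78.1% of protein-coding genes, and for 5 of 10 reproducible peaks, against 70.3%. Those 5 were mRpL41, mRpL23, mRpS7, mRpL32 and mRpL34. ChIP-seq does not tell which gene of a pair a bound region serves.

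**Figure D3:**
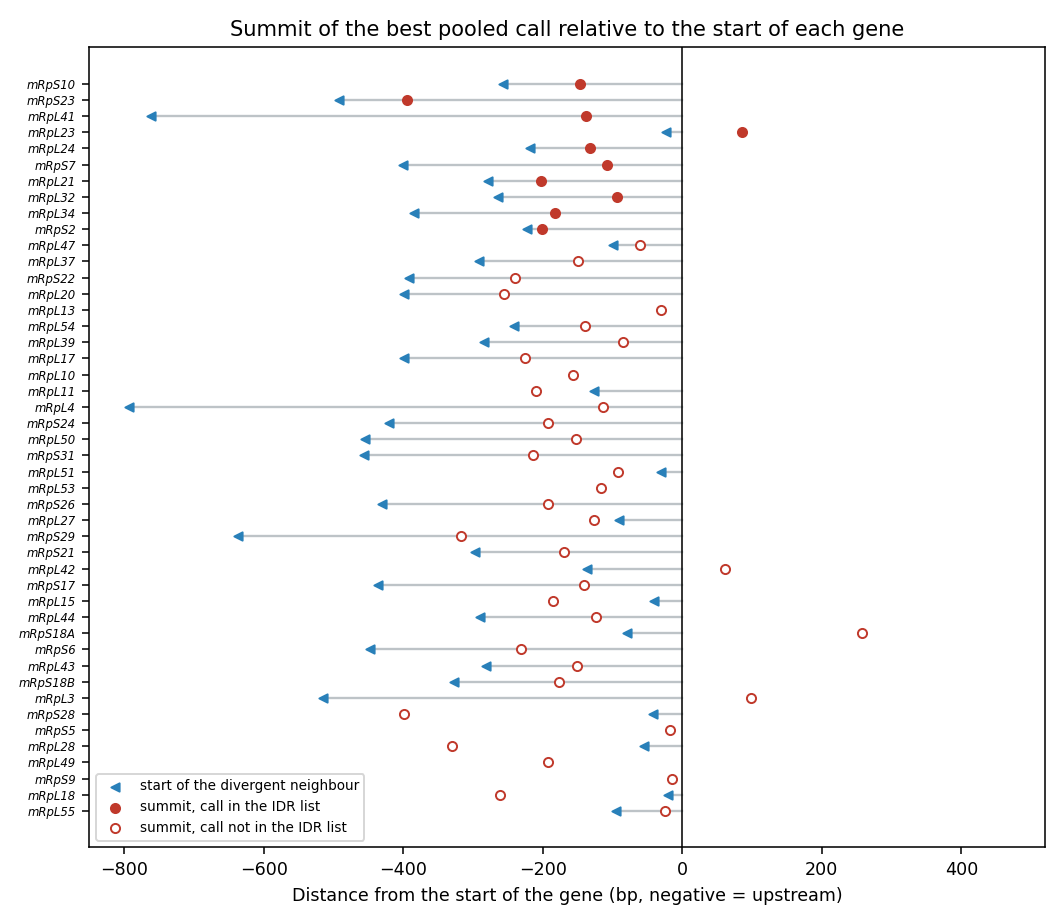
Position of the best pooled summit (circles, x axis in bp from the start of each gene, negative is upstream) at the 46 genes of the mitochondrial ribosome with a pooled call, ordered by signal from the top. Filled circles are reproducible peaks, triangles mark the start of the divergent neighbour and grey lines the gap. Of the summits, 42 are upstream of the gene, and 29 lie on a grey line.

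Calls were uneven between chromosome arms. A pooled call was present at 11 of 12 genes of the ribosome on 2L, 10 of 12 on 2R, 11 of 17 on 3L and 12 of 21 on 3R. On the X chromosome it was present at 2 of 11 (18.2%), mRpL3 at rank 7548 and mRpL49 at rank 15666, against 42.3% of protein-coding genes of the X. Over the autosomes it was present at 44 of 62 (71.0%), against 45.6%. No reproducible peak was on the X among these 11 genes, against 4.46% of protein-coding X genes, and 10 were among the 62 autosomal ones (16.1%), against 6.21%. The Wilson interval of 0 of 11 reaches 25.9%. In replicate 1 the X genes of the ribosome had a call at 7 of 11 (63.6%), against 50.9% of protein-coding X genes. The shortfall in the count of calls was thus not seen there. Those calls ranked low, with a median of 15430 against 8469 over protein-coding X genes with a call, and 0 were top calls. In replicate 2 the X genes of the ribosome had a call at 1 (9.09%), against 28.6%, and in replicate 4 at 3 (27.3%), against 37.9%. The difference between the X and the autosomes was not tested.

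**Figure D4:**
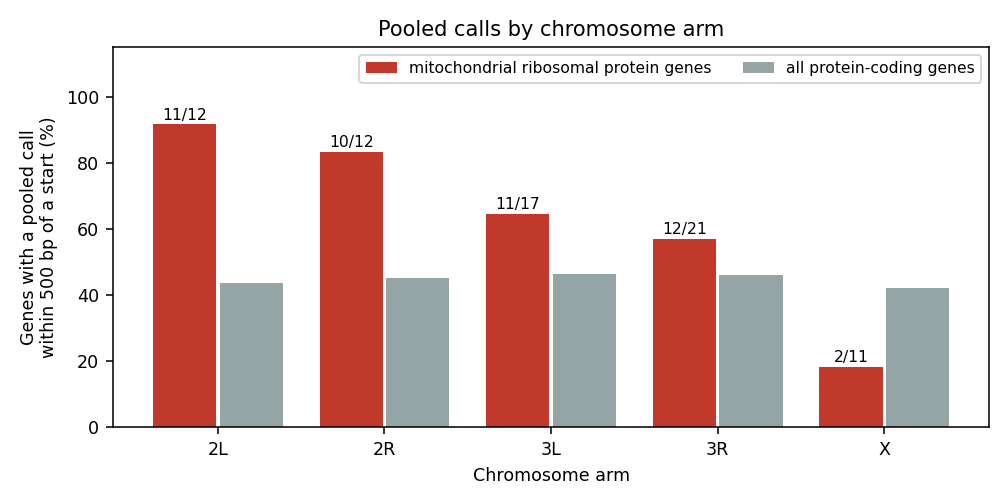
Share of genes with a pooled call within 500 bp of a start (y axis, percent) by chromosome arm (x axis), for the genes of the mitochondrial ribosome and for all protein-coding genes of that arm. Numbers above the bars count genes with a call over all genes of the ribosome on that arm. The X bar stands for 2 of 11 genes and is below its background, while those of the other arms are above theirs.

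Of 9 words searched in the promoters, the one whose share stood farthest from the background was the E-box CAGCTG, which reads the same on both strands and is known from promoter collections of the fly. Between 250 bp before and 50 bp after the outermost start it was present at 40 of 73 genes of the ribosome (54.8%), against 17.7% of 13960 protein-coding promoters of that length. It was in 21.2% of promoters with a divergent neighbour, in 24.1% of those of respiratory chain and ATP synthase genes and in 9.68% of those of cytosolic ribosomal protein genes. Words close to the start made up most of this: 28 of 45 lay from 25 bp before to 24 bp after it (62.2%), against 30.1% of the words of all protein-coding promoters. The start of 4 genes with a reproducible peak is shown with the word in capitals, with up to 40 bases before the start and 20 from it on, in the direction of the mitochondrial gene.
mRpL23 (chr3L:2373685-2373737, minus strand): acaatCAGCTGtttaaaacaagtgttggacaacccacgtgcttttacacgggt
mRpL21 (chr3L:19255042-19255101, minus strand): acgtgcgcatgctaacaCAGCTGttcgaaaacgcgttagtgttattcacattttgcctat
mRpL32 (chr3R:31252832-31252891, plus strand): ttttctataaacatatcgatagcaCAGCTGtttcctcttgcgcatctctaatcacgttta
mRpS2 (chr2L:4850400-4850459, minus strand): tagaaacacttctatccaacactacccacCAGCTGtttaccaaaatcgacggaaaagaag

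The share of the ribosome's genes with a call was alike with and without the E-box. A pooled call was present at 25 of the 40 genes with the word (62.5%) and at 21 of the 33 without it (63.6%), and a reproducible peak at 6 (15%) and at 4 (12.1%). Over protein-coding genes a pooled call was present at 51.5% with the word and 43.6% without it, and a reproducible peak at 8.28% and 5.43%. The genes of the ribosome with both were mRpS2, mRpL24, mRpL41, mRpL23, mRpL21 and mRpL32. Within 100 bp of the summit the word was present in 10 of 46 best pooled calls (21.7%), against 9.56% of all pooled calls at protein-coding starts. It was in 2 of the 10 reproducible peaks, against 7.89% of the 596 at protein-coding starts. Promoters of the ribosome's genes held the word more often in any case (54.8% against 17.7%). The part of this in the counts at summits was not tested.

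**Figure D5:**
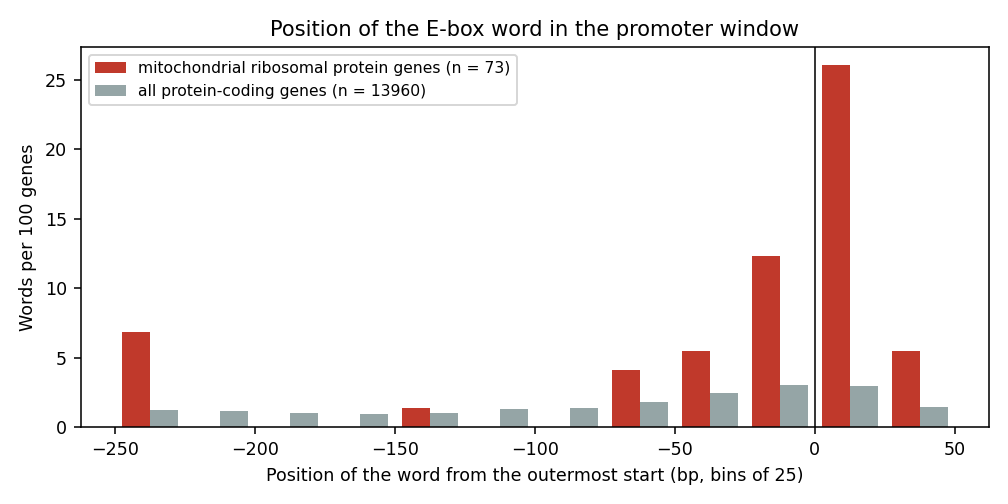
Number of E-box words per 100 genes (y axis) in bins of 25 bp along the promoter window (x axis, bp from the outermost start), for the 73 genes of the mitochondrial ribosome and for 13960 protein-coding genes. The bin from the start to 24 bp after it holds 19 words at the 73 genes, the highest of the window, and that of the 25 bp before it holds 9.

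Of the other words searched in the same window on both strands, the DNA replication-related element TATCGATA was present at 15 genes of the ribosome (20.5%), against 9.36% of protein-coding promoters and 15.1% of those with a divergent neighbour. The core CGATA bound by BEAF-32, which lies within TATCGATA, was present at 43 (58.9%), against 47.4% and 57.9%. GAGAG, the GAGA factor element, was at 12 (16.4%), against 29.7% and 24.0%, and GCCAT, the core bound by Pho, at 25 (34.2%), against 41.2% and 40.1%. Divergent promoters, the kind most of these genes have, lay between all protein-coding promoters and those of the ribosome for these 4 words. The motif 1 core GGTCACAC was present at 8 (11.0%), against 7.69% and 12.5%, and the motif 7 core CATCNCTA also at 8, against 6.41% and 10.2%. TATAAA was present at 34 (46.6%), against 45.8% and 47.8%, and GCATGCG, part of the NRF-1 site of vertebrates, at 2 (2.74%), against 2.27% and 1.74%. A word that matches is not a site known to be bound.

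Related gene lists are given beside the 45% of protein-coding genes with a pooled call and the 5.93% with a reproducible peak. Among 33 genes for mitochondrial aminoacyl-tRNA synthetases, translation factors and the mitochondrial transcription and RNA machinery, 13 had a pooled call (39.4%) and 1 a reproducible peak (3.03%). That was PNPase, the polynucleotide phosphorylase that degrades RNA in mitochondria, with a pooled signal of 632 at rank 10 and ranks 8, 13 and 18 in replicates 1, 2 and 4. The genes tko and bonsai encode small-subunit proteins under other names, and neither had a pooled call, while tko had a call in replicate 1 at rank 5952. The genes of the respiratory chain and ATP synthase, whose core subunits mitochondrial ribosomes make, had a reproducible peak at 6 of 87 (6.90%) and a pooled call at 46 (52.9%). Those of the cytosolic ribosome had a reproducible peak at 32 of 93 (34.4%) and a pooled call at 80 (86.0%), at a median pooled rank of 1862. The mitochondrial ribosome, with 13.7% and 63.0%, stood between both lists in each count, and the differences were not tested.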

How the data were processed

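Per the deposited description, the authors called peaks and background for each of 3 replicates and for their pool, with 1 control alignment, and derived the optimal IDR list. Each call carries the authors' deposited signal, which was used only to rank calls within a list. The sources used here do not name the aligner, the caller or the threshold. The reads and the control were not analysed here, and the dm3 lists were not used here. Calls on dm6 were set against Ensembl release 115 (release 6 of the assembly) without 5896 transposable elements, with Python 3.11.15, numpy 2.4.6 and scipy 1.17.1. Sequences came from the RefSeq FASTA of release 6. No test was made: there was 1 group, and the genes and lists were chosen with earlier results of these data known. Genes taken one by one were those with a reproducible peak, the next 5 by pooled signal, and any with ranks over 10 times apart between replicates. Their divergent neighbours were named, except 1 that is not reported here. Wilson intervals (95%) cover counting error only and treat genes as independent. Alternatives were TSS windows of 250 and 1000 bp, the nearest or outermost start, overlap, list size, each replicate left out and other definitions of divergence. Counting was tested on simulated data with planted calls.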

Additional observations from a re-analysis of the deposited data

How the results depend on the processing

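The count of 10 genes with a reproducible peak was 6 with the 571 strongest IDR peaks alone and 5 by the nearest start. Leaving out a replicate was counted as the reproducible peaks among the top calls of both others, which is stricter than the count of 10: it gave 6 for each replicate left out, where top calls in all 3 replicates gave 5 genes. The count of 10 was 9 within 250 bp and 10 within 1000 bp. The 46 genes with a pooled call became 25 by the nearest start, and ranged from 39 to 51 over the other settings. The gap in reproducible peaks between divergent and other genes, 17.5 percentage points, was 8.77 by the nearest start and 12.5 when divergence meant at most 500 bp. Top calls in all replicates ranged from 4 to 6, divergent genes from 52 to 57, and the median pooled rank from 3191 to 3504. The E-box count of 40 was 35 within 50 bp of the start, a window chosen after seeing the data. Leaving out a replicate could only be done on the final lists, since the pool was not called again. No paired analysis was possible because there was only 1 group. Depth is unknown, so a missing call does not show a missing signal, and the lists of 30000 calls hold background by design.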
